A study of Mus musculus with 12 samples.

Results

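The cluster of miR-183, miR-96 and miR-182 comprises 3 microRNA (miRNA) hairpins that are transcribed together, and its 6 mature arms were the rows mmu-miR-183-5p, mmu-miR-183-3p, mmu-miR-96-5p, mmu-miR-96-3p, mmu-miR-182-5p and mmu-miR-182-3p among the 1549 rows of a table of raw small RNA counts, written below without the species prefix. All 6 arms had a row, and all 6 passed the filter on low counts, described with each comparison, that preceded the tests. miR-96-3p did so only through its counts in R1, the diploid line introduced below. The 7 haploid libraries came from the androgenetic haploid embryonic stem cell (ESC) lines A129-2 (2), A129-6 (3) and A129-17 (2), whose chromosomes are of paternal origin. They were set against 2 libraries of R1, a diploid mouse ESC line, and 3 libraries of spermatids (RS) sorted from the testes of male 129Sv mice. All groups were labelled wild type (WT) and were collected by fluorescence-activated sorting. Per the labels' protocols, the haploid lines grew in serum medium with LIF and the inhibitors PD0325901 and CHIR99021 (2i) and were sorted again at intervals for haploid cells by Hoechst staining, while the culture of R1 is not described separately there. R1 was the single diploid line, so a difference from it cannot be told apart from a trait of that line. The replicates are described as independent sorts, and nothing says that they came from separate cultures or animals, so the p-values speak of the spread among these libraries, part of which may be technical.

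Each hairpin is cut from a shared primary transcript by Drosha and trimmed by Dicer to a duplex, from which either arm, named 5p or 3p by its side of the hairpin, can be loaded into an Argonaute protein. Targets are recognised mainly through the seed, bases 2 to 8 of the mature RNA. The cluster is best known from sensory cells of the ear, retina and nose, where loss of it impairs hearing and vision in mice and where mutations in the miR-96 seed cause progressive hearing loss, and it is also abundant in mouse ESC. The mature sequences below, from RefSeq on GRCm38.p6, are shown because the 5p arms, which carry nearly all the reads, have nearly the same seed. Capitals mark the seed.
mmu-miR-183-5p: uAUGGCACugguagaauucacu
mmu-miR-96-5p: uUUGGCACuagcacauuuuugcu
mmu-miR-182-5p: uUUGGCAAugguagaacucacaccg
mmu-miR-183-3p: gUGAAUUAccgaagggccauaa
mmu-miR-96-3p: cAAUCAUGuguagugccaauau
mmu-miR-182-3p: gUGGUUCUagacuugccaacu

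The seeds of miR-96-5p and miR-182-5p match at 6 of 7 positions, as do those of miR-96-5p and miR-183-5p, and those of miR-183-5p and miR-182-5p at 5 of 7. After base 8, counted base by base from the 5′ end, miR-183-5p and miR-182-5p match at 12 of 14 positions, miR-183-5p and miR-96-5p at 6 of 14, and miR-96-5p and miR-182-5p at 5 of 15. The sources used here do not say how reads with several matches were counted. The 3p arms have seeds unlike each other and unlike those of the 5p arms. The seed of miR-96-5p is also that of miR-1271-5p, which was not analysed here, and the seed of miR-96-3p is that of miR-3475-5p, an X-linked miRNA whose counts were too low to be tested. The share of G and C bases, which bears on the results below, was 40.9% in miR-183-5p, 39.1% in miR-96-5p, 48% in miR-182-5p, 45.5% in miR-183-3p, 36.4% in miR-96-3p and 47.6% in miR-182-3p.

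In RefSeq on GRCm38.p6 the cluster spans chr6:30165918-30169737, 3820 bases on the minus strand. Transcription runs through Mir183 (chr6:30169668-30169737) and Mir96 (chr6:30169446-30169551), separated by 116 bases, and on to Mir182 (chr6:30165918-30165992), 3453 bases further. In the GENCODE M21 annotation of that assembly the hairpins lie outside protein-coding genes, with the lincRNA gene Rncr4 3155 bases away and Nrf1, a gene for a transcription factor of mitochondrial genes, 12459 bases away, both on the plus strand. The hairpins are printed with both mature arms in capitals, since the results were read arm by arm.
Mir183: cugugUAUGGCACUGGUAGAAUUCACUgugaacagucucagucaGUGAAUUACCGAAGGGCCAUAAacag
Mir96: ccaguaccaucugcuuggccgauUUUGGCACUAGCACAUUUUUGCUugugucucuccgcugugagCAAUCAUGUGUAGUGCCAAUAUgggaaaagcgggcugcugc
Mir182: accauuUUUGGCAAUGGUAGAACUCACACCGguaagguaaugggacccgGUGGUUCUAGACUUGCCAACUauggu

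Library totals were 3709786 to 9102467 counts in the haploid lines, 7632174 and 9176080 in R1, and 155232 to 243714 in RS. ESC markers (9 chosen 3p arms of the miR-290 and miR-302 clusters) summed to 76910 to 139500 counts per 1000000 counted reads (CPM) in the haploid lines, 193200 to 193600 in R1 and 57.4 to 2583 in RS. This order holds for the chosen arms only. All arms of the miR-290 cluster together took a larger part of the counts in every haploid library than in R1. Markers of spermatids and late germ cells (6 miRNAs) summed to 2519 to 11170 CPM in the haploid lines, 1048 to 1097 in R1 and 278000 to 379600 in RS. Mesenchymal markers (6 miRNAs) were present throughout, at 5859 to 26770 CPM in the haploid lines, 13400 to 15300 in R1 and 14050 to 66270 in RS, and blood and endothelial markers (6 miRNAs) at 352 to 849 CPM, 530 to 571 CPM and 1288 to 13400 CPM in the same groups. Of the Sertoli markers miR-202-3p and miR-202-5p, the sum was at most 0.412 CPM in any ESC library and 90.0 to 142 CPM (RS). The part of these other cells in the results below was not tested.

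As a whole the cluster was far more abundant in R1 than in either kind of haploid cell. Of all counts it took 0.788% and 0.944% (A129-2), 1.30%, 1.25% and 1.17% (A129-6), 0.679% and 1.01% (A129-17), 8.25% and 7.48% (R1), and 0.760%, 0.617% and 0.494% (RS). The haploid ESC and RS shares overlapped, and both lay below those of R1. Shares also depend on what else is in a library. Outside the miR-290 cluster, the most abundant ESC miRNAs, the cluster made up 2.20% to 5.11% of counts in the haploid lines, 15.0% to 16.2% in R1 and 0.495% to 0.760% in RS, so that on this base the haploid lines lay between R1 and RS with no overlap. The share of all miRNAs that separate these groups was not counted, here or for the single arms below.

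miR-183-5p was the main arm of the cluster in the haploid lines. Its level was 5686 and 5563 CPM (A129-2), 8812, 8550 and 8970 CPM (A129-6), 5308 and 7874 CPM (A129-17), 29449 and 29325 CPM (R1), and 2778, 1971 and 2136 CPM (RS). The groups were ordered R1, haploid lines, RS, without overlap, a separation not counted over all miRNAs. By count it ranked 10 to 24 among all miRNAs in the haploid libraries, 10 in both R1 libraries and 43 to 68 in RS.

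miR-182-5p was the main arm in R1 and in RS. It stood at 2108 and 3790 CPM (A129-2), 4060, 3781 and 2660 CPM (A129-6), 1423 and 2147 CPM (A129-17), 51028 and 43885 CPM (R1), and 4706, 3936 and 2682 CPM (RS). Every R1 library lay over 10-fold above every haploid library, and the haploid and RS ranges overlapped. Its rank was 29 to 52 in the haploid libraries, 6 and 7 in R1, and 36 to 48 in RS.

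miR-96-5p, the arm of the hearing-loss mutations, was the scarcest of the 5p arms throughout. It had 25.1 and 39.7 CPM (A129-2), 46.2, 42.0 and 35.3 CPM (A129-6), 32.7 and 34.98 CPM (A129-17), 1932 and 1496 CPM (R1), and 119, 251 and 114 CPM (RS). In CPM the haploid lines were lowest, below RS as well as R1, and the ranges of the 3 kinds of cell did not overlap. After TMM scaling over all libraries the haploid and RS ranges did overlap, at 24.4 to 75.2 and 52.0 to 95.7 normalised CPM. The order against RS thus depends on the scaling. The RS values rest on 19 to 39 reads per library. By rank miR-96-5p stood at 239 to 349 in the haploid libraries, 48 to 57 in R1 and 157 to 195 in RS.

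The 3p arms were minor products. miR-183-3p had 57.7 and 41.2 CPM (A129-2), 64.1, 80.2 and 31.9 CPM (A129-6), 20.5 and 35.2 CPM (A129-17), 54.4 and 53.3 CPM (R1), and 0, 12.9 and 6.00 CPM (RS). The R1 values lay inside the haploid range, unlike for any other arm. miR-182-3p had 5.12 and 3.63 CPM (A129-2), 3.47, 5.89 and 1.24 CPM (A129-6), 5.52 and 10.7 CPM (A129-17), 22.0 CPM in each library of R1, and 0, 0 and 6.00 CPM (RS). All haploid values were below R1. miR-96-3p was counted in the single digits in the haploid lines, with 2 and 5 reads (A129-2), 1, 2 and 0 reads (A129-6) and 0 reads (both A129-17 libraries), against 94 and 143 reads in R1 and 0 in every RS library. The 3 RS libraries held 3 reads of miR-183-3p and 1 of miR-182-3p in all, so the 3p arms were at the limit of detection there.

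**Figure D1:**
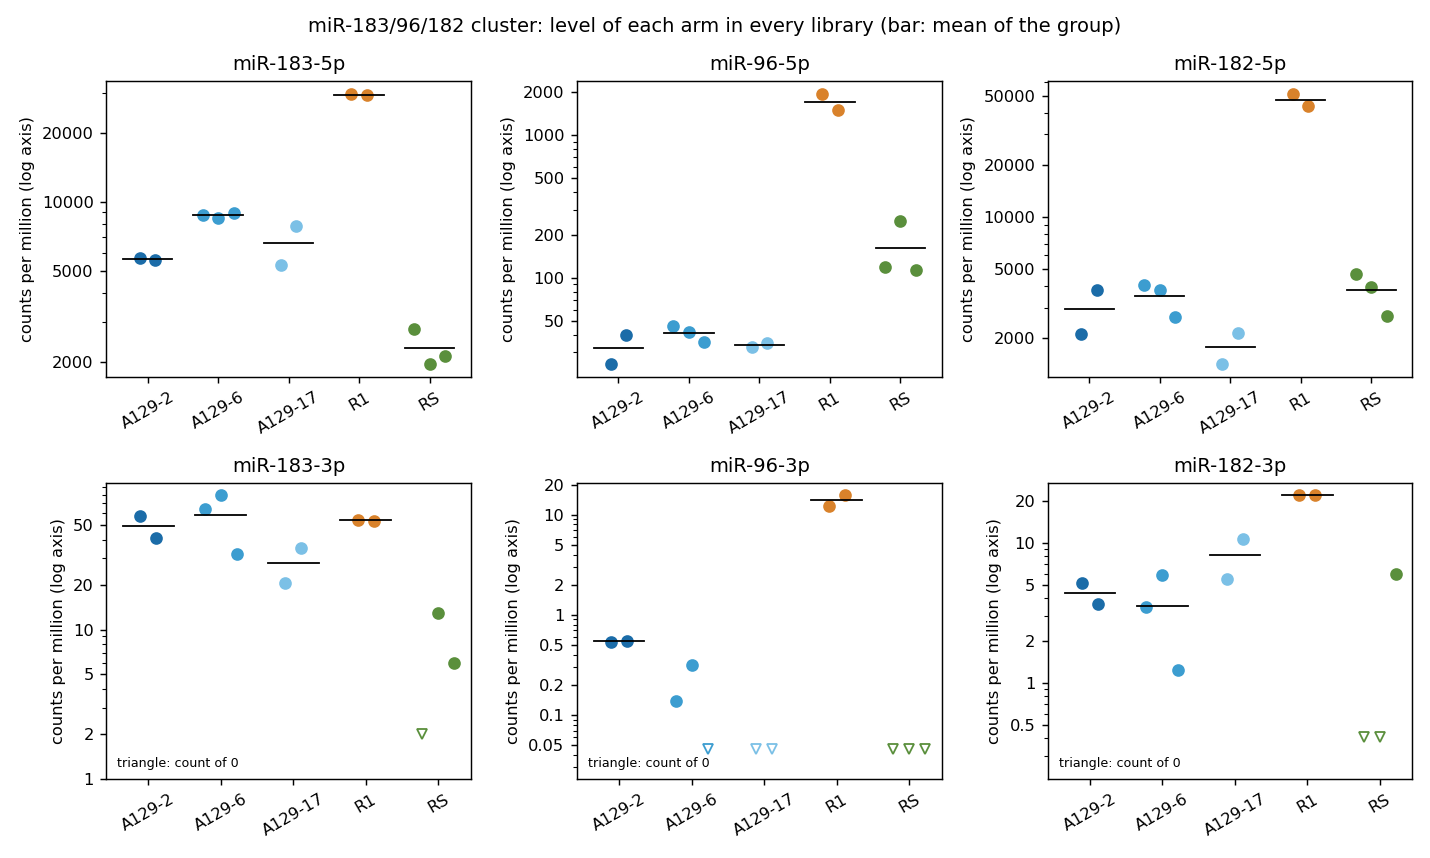
Level of each arm of the cluster in every library, in CPM on a log axis. Points are libraries, bars are group means where every library has a count, and triangles are counts of 0. The 5p arms are highest in R1, at 29449 and 29325 CPM for miR-183-5p, while miR-183-3p in R1 (54.4 and 53.3 CPM) falls within the haploid range.

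The first comparison asked how far the haploid lines, weighed equally, departed from diploid R1. Of the 6 arms 5 were lower in the haploid lines and 0 were higher, where 35.3% of all 757 miRNAs tested were called lower and 35.3% higher (edgeR quasi-likelihood test over the 9 ESC libraries, TMM scaling, Benjamini-Hochberg adjusted p below 0.05, after a count filter of about 10 reads in the smallest group). Among the 5, miR-96-3p passed that filter only through R1, with at most 5 reads in any haploid library, so it could only be called lower. The median log2 difference of the 6 arms was -3.03, beside 0.33 over all miRNAs tested. In bulk samples fewer cells of a type and less RNA per cell cannot be told apart.

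The size of the difference varied widely among arms of the same transcript. miR-96-5p was 42.8-fold lower in the haploid lines than in R1 (log2 -5.42, SE 0.27, adjusted p = 2.13e-10 by edgeR) and miR-182-5p 16.1-fold lower (log2 -4.01, SE 0.26, adjusted p = 3.90e-09). miR-183-5p was 3.83-fold lower (log2 -1.94, SE 0.24, adjusted p = 3.13e-06). All 3 were lower in 7 of 7 haploid libraries than in R1, and the share of all miRNAs that separate in this way was not counted. miR-182-3p fell 4.14-fold (log2 -2.05, SE 0.38, adjusted p = 0.000185). miR-96-3p had 10 reads over the 7 haploid libraries and 237 over the 2 of R1, and after scaling was 58.4-fold lower in the haploid lines (95% exact interval 31.2 to 123, counting error only, since reads without molecular identifiers are not independent molecules). miR-183-3p was not called (log2 -0.22, SE 0.29, adjusted p = 0.497 by edgeR, 95% interval -0.78 to 0.34).

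The differences from R1 ran with base composition. Over all tested miRNAs with a known sequence, the median log2 difference between the haploid lines and R1 was -3.05 among the 38 with under 35% G and C, -2.45 among the 140 with 35 to 45%, -0.22 among the 242 with 45 to 55%, and 1.79 among the 189 with 55% or more. A correction by a smooth curve on G and C content in each library, fitted on the 609 of 757 miRNAs with a sequence, left miR-96-5p at -3.40 (SE 0.24) and miR-182-5p at -3.47 (SE 0.25), each with an adjusted p of 7.96e-08 by edgeR. Under it miR-182-3p was at -1.44 and miR-96-3p at -4.92, both still called. The correction ended the call of miR-183-5p, at -0.19 (SE 0.26, adjusted p = 0.530), and turned miR-183-3p to 0.79 (adjusted p = 0.0240). Both miR-183 arms thus depended on it, and whether the trend on base composition is technical was not tested. Without the replicates in turn, the miR-183-5p difference stayed between -2.09 and -1.84.

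The 5p arms were lower than in R1 in each line taken alone. Against R1, with the same R1 libraries in each comparison, miR-96-5p was at log2 -5.73 (SE 0.44) for A129-2, -5.23 (0.36) for A129-6 and -5.29 (0.43) for A129-17. miR-182-5p was at -4.01 (SE 0.41), -3.64 (0.35) and -4.38 (0.42) for the lines in that order. miR-183-5p was at -2.46 (SE 0.34), -1.55 (0.29) and -1.80 (0.33). Each of these 9 differences was called, where 28.8% of all miRNAs were called lower for A129-2, 32.1% for A129-6 and 31.6% for A129-17. With all 12 libraries in the fit miR-183-5p was no longer called for A129-6 (-0.69, adjusted p = 0.225 by edgeR) and A129-17 (-0.92, adjusted p = 0.150), and with the correction for G and C content it was called for none of the lines, though for A129-2 it was called with the correction and a replicate block together (-0.78, adjusted p = 0.00959). miR-182-3p was called in A129-2 (-2.44) and A129-6 (-2.61), and in A129-17 it was at -1.10 (adjusted p = 0.0691 by edgeR). It was called there with RLE scaling (-1.34), DESeq2 (-1.35) and a replicate block (-1.14, adjusted p = 0.0338), and without A129-6 replicate 3 (-1.04). For miR-183-3p the single lines depended on the setting. A129-6 was at 0.19 and was called higher with the correction (1.13), correction and block (1.23, adjusted p = 0.00606) and all 12 libraries (1.05), while A129-17 was at -0.61 and was called lower with RLE scaling (-0.85) and DESeq2 (-0.85). miR-96-3p, with 0 reads in A129-17, was at least 44.99-fold lower there than in R1, taking 3 reads over both A129-17 libraries as the limit.

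An edgeR F-test among the 3 lines called none of the 6 arms, with adjusted p-values of 0.127 (miR-182-3p) to 0.568 (miR-96-5p). It called 3.83% of all 757 miRNAs. At an unadjusted p below 0.05 there were 2 of the 6 arms, miR-182-3p and miR-183-5p, beside 174 of all 757 miRNAs. DESeq2's likelihood ratio test called miR-182-3p (adjusted p = 0.0395), and so did edgeR without the 2 haploid libraries of lowest TMM factor, A129-6 replicate 3 and A129-17 replicate 1 (adjusted p = 0.0364). In edgeR's tests between pairs of lines none of the 6 arms was called either, where 2.38% of all miRNAs were called between A129-6 and A129-2 and 0% between A129-17 and either other line (181 against A129-2 and 123 against A129-6 had an unadjusted p below 0.05, and DESeq2 called 72 and 29). The estimates remained wide: miR-183-5p stood 0.91 higher in A129-6 than in A129-2 (log2, SE 0.30, 95% interval 0.31 to 1.50, adjusted p = 0.143 by edgeR), and miR-182-3p 1.50 higher in A129-17 than in A129-6 (SE 0.48, 95% interval 0.56 to 2.45, adjusted p = 0.171). Between A129-17 and A129-2, miR-183-5p was called with correction and block (0.87, adjusted p = 0.0290), and miR-182-3p without the 2 libraries of lowest TMM factor (1.72, adjusted p = 0.0292). A129-17 had the highest mean of miR-182-3p, at 8.11 ± 3.67 CPM (SD, n = 2), against 4.37 ± 1.06 in A129-2 (n = 2) and 3.53 ± 2.33 in A129-6 (n = 3).

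Ratios between arms of the same library do not depend on how libraries are scaled to each other, and they separated the haploid lines from both other groups. How many other pairs of miRNAs separate these groups in the same way was not counted. The separation is therefore not shown to be particular to this cluster. miR-182-5p over miR-183-5p was 0.371 and 0.681 (A129-2), 0.461, 0.442 and 0.297 (A129-6), 0.268 and 0.273 (A129-17), 1.73 and 1.50 (R1), and 1.69, 2.00 and 1.26 (RS). The ratio was below 1 in every haploid library and above 1 in every other. miR-183-5p made up 58.9% to 78.2% of the cluster's reads in the haploid libraries, and averaged 37.5% ± 2.48 in R1 (SD, n = 2) and 37.2% ± 5.66 in RS (SD, n = 3). miR-182-5p made up 21.0% to 40.2% in the haploid libraries, and averaged 60.3% ± 2.25 in R1 and 59.98% ± 5.05 in RS.

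The share of miR-96-5p was lower still. Its ratio to miR-183-5p was 0.00393 to 0.00713 in the haploid libraries, 0.0656 and 0.0510 in R1, and 0.0428, 0.127 and 0.0534 in RS. Its ratio to miR-182-5p was 0.0105 to 0.0229 in the haploid libraries, 0.0379 and 0.0341 in R1, and 0.0253, 0.0638 and 0.0425 in RS. Neither ratio overlapped between the haploid lines and the other groups.

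Between the haploid lines and R1, the mean log2 ratio of miR-182-5p to miR-183-5p differed by -2.09, that of miR-96-5p to miR-183-5p by -3.51 and that of miR-96-5p to miR-182-5p by -1.42. In a two-sided exact permutation test over libraries each had p = 0.0278, the smallest that 7 against 2 libraries allow, and the same value adjusted over the 3 ratios. Between the haploid lines and RS the differences were -2.10, -3.71 and -1.61, each with an exact permutation p = 0.00833, the smallest that 7 against 3 libraries allow and the same after adjustment. Libraries of the same line entered these tests as separate samples. Each ratio follows from the other 2, so the tests are not independent. After the correction for G and C content, chosen for the ratios after seeing the data, the miR-182-5p to miR-183-5p ratio differed by -3.27 from R1 and -3.40 from RS, and the miR-96-5p to miR-183-5p ratio by -3.23 and -3.37. The miR-96-5p to miR-182-5p ratio then differed by 0.04 from R1 (adjusted exact p = 0.917) and by 0.03 from RS (adjusted exact p = 0.933). Under the correction miR-96-5p and miR-182-5p thus still departed from miR-183-5p, and a departure of miR-96-5p from miR-182-5p was not detected.

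**Figure D2:**
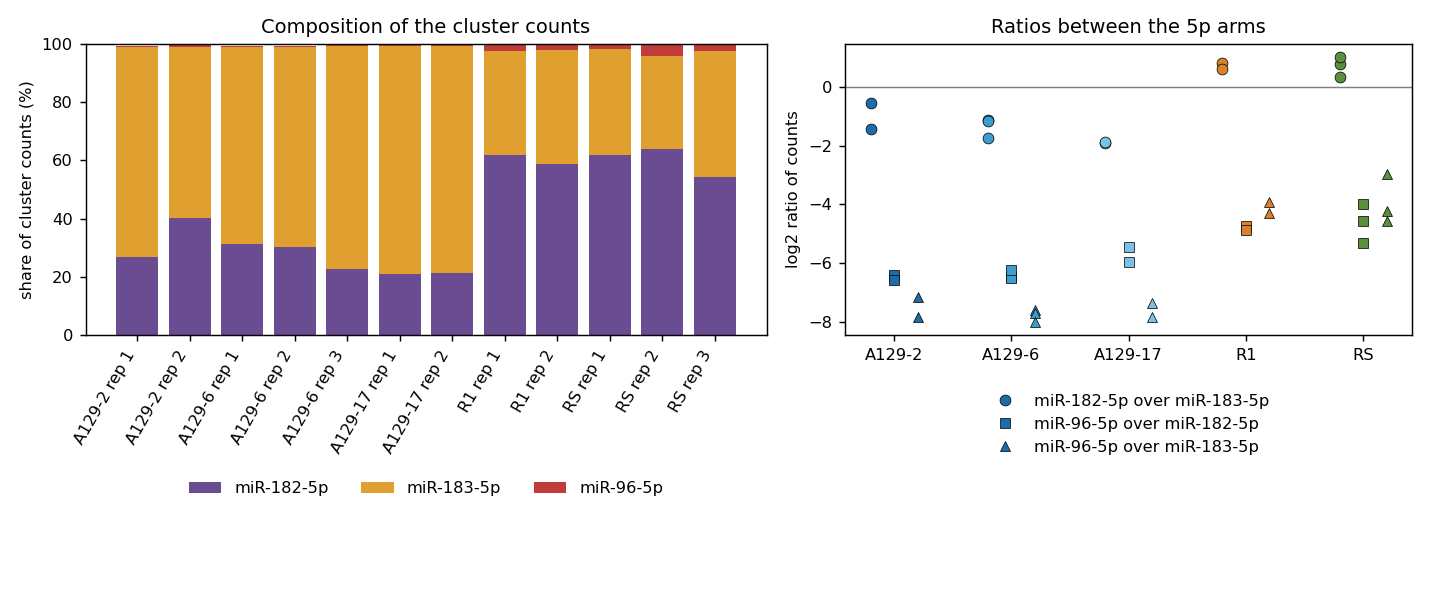
Left, share of the cluster's reads taken by each 5p arm in every library, in percent. Right, log2 ratios of the read counts of 2 arms, each point a library. miR-182-5p over miR-183-5p lies below 0 in all 7 haploid libraries and above 0 in the R1 and RS libraries, with ratios of 0.268 to 0.681 in the haploid libraries and 1.73 and 1.50 in R1.

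The second set of comparisons asked how the haploid ESC and R1 differ from haploid germ cells. Over all 12 libraries, 4 of the 6 arms were called higher in the haploid lines than in RS and 0 lower, where 44.5% of the 806 miRNAs tested were called higher and 20.8% lower. The median log2 difference was 2.79 over all miRNAs. Over the arms it was 2.87, a value that rests in part on miR-96-3p, at or under the limit of detection in both groups. The 2 medians are therefore not compared. Of all calls 68.1% were higher in the haploid lines, against 48.6% with upper-quartile and 46.1% with total-count scaling, which shifted the median of all miRNAs by -1.56 and -1.68. miR-183-5p was higher in haploid ESC by a log2 difference of 3.32 (SE 0.46, adjusted p = 9.26e-07 by edgeR) and kept that call under all 24 alternatives, down to 1.58. miR-183-3p was higher as well, with 2125 reads in the haploid lines against 3 in RS (ratio after scaling 29.1, 95% exact interval 9.94 to 141.2). miR-182-3p was called with 221 reads in the haploid lines against 1 in RS (ratio 9.08, interval 1.61 to 360), a call lost under 5 settings and without RS replicate 1 (adjusted p = 0.0815 by edgeR). With 1 read in RS it passed the filter only through ESC libraries, so it could only be called higher in ESC.

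miR-182-5p was called higher in haploid ESC by a log2 difference of 1.24 (SE 0.42, adjusted p = 0.0117 by edgeR), but this direction rests on the scaling. It was at -0.35 with upper-quartile scaling, -0.52 with total counts and -0.36 with the correction for G and C content, none of them called. The TMM factors were 0.470 to 1.03 in the haploid lines and 1.89 to 2.63 in RS. The call held under 9 of 24 alternatives. It was lost without A129-2 replicate 2 (0.60), A129-6 replicate 1 (1.10), A129-17 replicate 1 (0.96) or replicate 2 (0.83), either R1 library (1.10 each) or RS replicate 3 (0.92). miR-96-5p was not called (log2 -0.33, SE 0.34, adjusted p = 0.393) although its CPM ranges did not overlap, and with upper-quartile scaling (-1.91), total counts (-2.17), RLE scaling (-0.85) or DESeq2 (-0.85) it was called lower in the haploid lines. Without A129-2 replicate 2 it was also called (-1.02), while it was at 0.02 without A129-2 replicate 1 and at 0.15 without RS replicate 2. Of miR-96-3p both groups were at or under the limit of detection, so no fold is given.

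R1 exceeded RS in all 6 arms, where 33.6% of all miRNAs tested were called higher and the median log2 difference was 4.35 over the arms and 2.04 over all miRNAs. Of all calls 63.5% were higher in R1, against 49.6% with upper-quartile scaling. miR-183-5p, miR-182-5p and miR-96-5p were higher in R1 by similar amounts, at log2 4.40 (SE 0.53), 4.38 (SE 0.54) and 4.22 (SE 0.45), with adjusted p-values of 2.99e-07 or less by edgeR. For the 3p arms the reads in RS were few. miR-183-3p had 904 reads in R1 against 3 in RS (ratio after scaling 16.9, 95% exact interval 5.76 to 82.0), and miR-182-3p had 370 against 1 (ratio 20.7, interval 3.70 to 821). miR-96-3p, with 237 reads in R1 and 0 in RS, was at least 4.42-fold higher in R1, taking 3 reads over the RS libraries as the limit. miR-96-3p passed the filter only through R1 and miR-182-3p only through ESC libraries, so neither could be called lower in R1 than in RS.

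**Figure D3:**
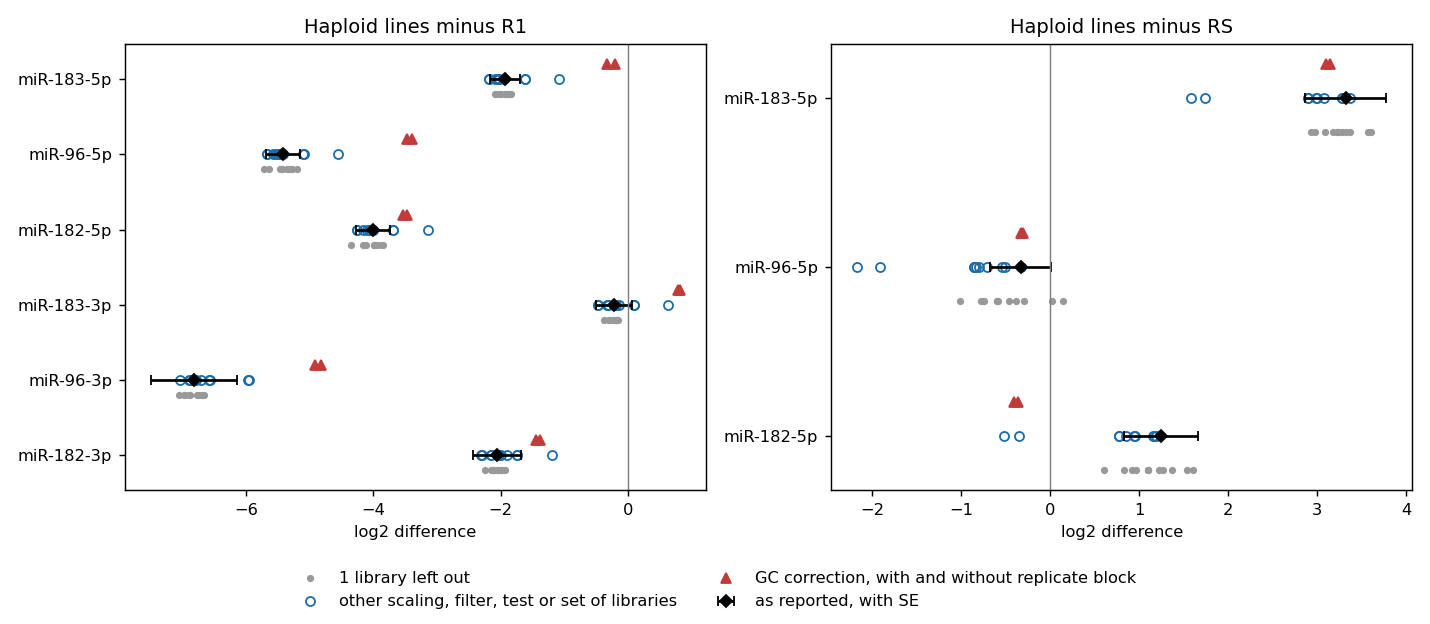
Log2 differences of the haploid lines from R1 (left, all 6 arms) and from RS (right, the 5p arms) under each setting tried. Diamonds with SE bars are the reported values, grey dots leave out 1 library, circles are other scalings, filters, tests or sets of libraries, and triangles are corrected for G and C content. The corrected values bring miR-183-5p to -0.19 against R1, with miR-96-5p at -3.40 and miR-182-5p at -3.47.

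Read by arm, every hairpin gave its reads overwhelmingly from the 5p side, and for miR-183 and miR-182 the 3p share was higher in the haploid lines than in R1. For miR-183 the 3p arm took 0.630% of the reads of both arms over the 7 haploid libraries (95% exact interval 0.604% to 0.658%, reads pooled) and 0.183% over the 2 of R1 (0.171% to 0.195%). The log2 ratio of 5p to 3p reads was 6.62 and 7.08 (A129-2), 7.10, 6.74 and 8.13 (A129-6), 8.01 and 7.80 (A129-17), and 9.08 and 9.10 (R1). All haploid libraries lay below both R1 libraries. The difference was -1.73 (SE 0.38, adjusted p = 0.00637 by limma over the 256 miRNAs with both arms), with 53.5% of these miRNAs called and 28.1% called lower.

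For miR-182 the 3p arm took 0.162% of reads over the haploid libraries and 0.0467% in R1. The log2 ratio was 8.65 and 10.01 (A129-2), 10.16, 9.31 and 10.99 (A129-6), 7.99 and 7.64 (A129-17), and 11.17 and 10.96 (R1). A129-17 was lowest and A129-6 replicate 3, at 10.99, was just above R1 replicate 2, at 10.96, so these groups overlapped. The difference was -1.97 (SE 0.49, adjusted p = 0.0111 by limma). The calls of both hairpins were lost without either R1 library, with adjusted p-values of 0.0607 and 0.0585 for miR-183 and of 0.0920 and 0.0655 for miR-182 without R1 replicate 1 and R1 replicate 2. With the correction for G and C content, chosen here after seeing the data, miR-183 was at -1.003 and no longer called (adjusted p = 0.0557 by limma). miR-182 was at -2.04 (adjusted p = 0.00755). These p-values were adjusted over the 64.1% of the 256 miRNAs that had both sequences, a smaller set than without the correction. Among the haploid lines 0 of 256 miRNAs differed in arm ratio by limma's F-test, and 50 had an unadjusted p below 0.05, miR-182 and miR-96 among them.

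For miR-96 the arms could not be compared at this depth. The haploid libraries held 10 reads of miR-96-3p beside 1729 of miR-96-5p, 0.575% of both arms (95% exact interval 0.276% to 1.05%), and R1 held 237 beside 28473, 0.825% (0.724% to 0.937%), so the intervals overlapped. The limma difference of 0.46 (adjusted p = 0.531) was computed with a pseudocount of 0.5 and turned to -1.70 with a pseudocount of 5. In RS the depth allowed no arm comparison for any hairpin, although 69.2% of 260 miRNAs were called in arm ratio between the haploid lines and RS, and 41.9% between R1 and RS. miR-96 was among those called between the haploid lines and RS (log2 1.57, adjusted p = 0.0167 by limma). That value rests on the pseudocount, since miR-96-3p had 0 reads in RS. RS held 3, 0 and 1 reads of the 3p arms of miR-183, miR-96 and miR-182, where the 3p shares of the haploid lines would give 8.46, 0.5 and 3.56 reads and those of R1 would give 2.45, 0.718 and 1.03.

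**Figure D4:**
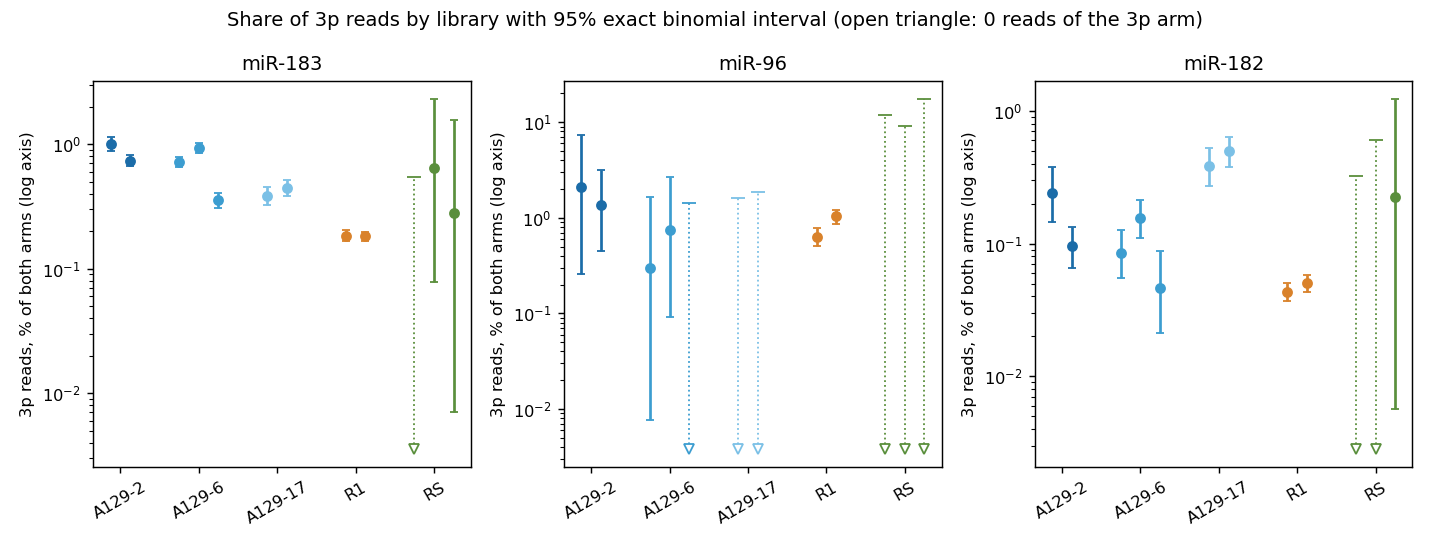
Reads of the 3p arm as a percentage of the reads of both arms of each hairpin, on a log axis, in every library with its 95% exact binomial interval. Triangles with dotted lines are libraries with 0 reads of the 3p arm, the dash above them being the upper bound. For miR-183 every haploid library lies above R1, whose pooled share was 0.183%, while the intervals of RS replicates 2 and 3 span both and that of RS replicate 1, with 0 reads of the 3p arm, ends at 0.543%.

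The 5 miRNAs whose profile over the 5 groups was most like that of the summed cluster were miR-130a-5p, miR-376a-5p, miR-708-5p, miR-3081-3p and miR-582-3p, with root mean square differences of 0.24, 0.29, 0.29, 0.31 and 0.33 on the log2 scale among 567 candidates of at least 10 normalised CPM in a group. The cluster's own arms, not picked for closeness as these 5 were, differed from its sum by 0.47 (miR-183-5p) to 1.29 (miR-96-5p). Of the candidates, 1.59% were at least as close as miR-183-5p, 3.00% as miR-182-5p and 4.06% as miR-182-3p. For miR-96-3p, miR-183-3p and miR-96-5p this share was 13.2%, 16.75% and 20.6%. miR-183-5p and miR-182-5p themselves make up most of the sum. Of the 5, only miR-708-5p was above 20 normalised CPM in any group, with means of 39.8 (A129-2), 39.6 (A129-6), 34.96 (A129-17), 200.2 (R1) and 6.63 (RS). miR-130a-5p, miR-376a-5p and miR-582-3p had 0 counts in RS and miR-3081-3p had 1, so their place in RS was set by the offset of 0.5 added before the log, and their likeness there is not a measurement. miR-708-5p itself rests on 2, 3 and 3 reads in RS.

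Other miRNA genes of the same stretch of chromosome 6 were called in both directions. Of 10 arms of Mir592, Mir129-1, Mir335, Mir29a, Mir29b-1 and Mir490, which lie 0.572 to 6.25 megabases away, 7 were tested against R1, of which 1 was higher in the haploid lines, 4 were lower and 2 were not called, with a median log2 difference of -1.36, beside 35.3% higher, 35.3% lower and a median of 0.33 over all 757 miRNAs. miR-335-3p, from an intron of the imprinted gene Mest, was lower in the haploid lines, with 31.6 to 249 CPM in the haploid libraries against 1181 and 1184 CPM in R1 (log2 -3.25, SE 0.25, adjusted p = 1.76e-08 by edgeR). miR-129-5p was higher there (log2 1.67, SE 0.29, adjusted p = 9.93e-05), and is uncertain because a second gene gives the same mature RNA and an antisense row had nearly the same counts. miR-29a-3p was not called (0.69, adjusted p = 0.0582). miR-335-5p, among the 4 lower arms, passed the filter only through R1 (88.4 and 77.8 CPM), so it could only be called lower. Of the miR-200 family, which is expressed in ESC and epithelia, 7 of 8 tested arms were lower and 0 higher, with a median of -2.35, beside the same 35.3% lower, 35.3% higher and median of 0.33 over all miRNAs. Of the 7, miR-141-5p passed the filter only through R1 (1.44 and 2.40 CPM), so it could only be called lower. Both lists were chosen with earlier results of these data known.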

How the data were processed

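Small RNA libraries were made by ligation of the 3′ and then the 5′ adapter, PCR and gel selection, per the labels' protocols, and DESeq2 and Bowtie 0.12.9 are named per the submitters' processing notes. The table deposited by the authors holds raw read counts for each miRNA, not normalised. The genome build, the miRBase release and the counting of reads with several matches are not given in the sources used here. All 12 columns were matched to samples by name. Counts were tested with edgeR 4.0.16 in R 4.3.3 (filterByExpr with a minimum count of 10 and total of 15, TMM, quasi-likelihood F-test, Benjamini-Hochberg over all miRNAs), with the 9 ESC libraries for contrasts among ESC and all 12 for RS. Arm ratios were log2 of 5p over 3p counts with a pseudocount of 0.5, tested with limma 3.58.1 over miRNAs with a mean of at least 20 counts and at least 10 per arm. CPM is per 1000000 counts of the table. A limit of 3 counts stands for 0, and it and the intervals cover counting error only. Ratios between 5p arms were tested by exact permutation. DESeq2 1.42.0, other scalings and filters, a correction for G and C content, a replicate block and leaving out each library were alternatives. The edgeR fits of the haploid lines against R1 and against RS, and the arm ratio fit against R1, were tested on simulated counts. Lines were also compared in pairs. Mature sequences were matched for 1158 of 1549 rows. The text names the 6 arms, the 5 miRNAs of most similar profile, seed sharers, chromosome 6 neighbours of at least 100 normalised CPM in a group, and the miR-200 family by count. The members and lists were chosen with earlier results of these data known.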

Additional observations from a re-analysis of the deposited data

How the results depend on the processing

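Between the haploid lines and R1, the calls of miR-96-5p, miR-96-3p, miR-182-5p and miR-182-3p held under all 22 alternatives each, with log2 ranges of -5.72 to -3.40, -7.05 to -4.83, -4.35 to -3.14 and -2.30 to -1.20. For miR-96-3p, which passed the filter only through R1, no other direction could be called. miR-183-5p lost its call with the correction for G and C content, alone (-0.19) or with a replicate block (-0.32). In single lines it turned to 0.11 (A129-6) and 0.091 (A129-17) with the correction, and to 0.090 (A129-17) with correction and block. With correction and block it was called for A129-2 (-0.78). The miR-183-3p difference, not called as reported, turned positive with upper-quartile scaling (0.10), a stricter filter (0.10), the correction (0.79, called), correction and block (0.82, called) and all 12 libraries in the fit (0.64). For A129-2 these gave 0.013, 0.053, 0.76, 0.76 and 0.59. For A129-17 the last 3 gave 0.49, 0.48 and 0.27, and for A129-6 it turned to -0.073 with RLE scaling and -0.072 with DESeq2, but was called at 1.13, 1.23 and 1.05 with the last 3. For A129-17 it was called at -0.85 with RLE scaling and with DESeq2. Fitting all 12 libraries shifted the median of all miRNAs by 0.85 and raised the share of higher calls to 66% of all calls, against 50%. Among the haploid lines the count of calls was 29, but 0 with total-count scaling, 82 with no filter, 3 with a stricter filter, 90 with DESeq2, 2 with all 12 libraries and 89 without the 2 libraries of lowest TMM factor. It was 0 to 80 leaving out 1 library: 9 and 6 without A129-2 replicates 1 and 2, 0, 0 and 80 without A129-6 replicates 1, 2 and 3, and 44 without A129-17 replicate 2. Between A129-6 and A129-2 calls numbered 18, but 2 with total-count scaling, 41 with no filter, 1 with a stricter filter, 42 with DESeq2, 8 with all 12 libraries, 37 without the 2 libraries of lowest TMM factor and 0 to 32 leaving out 1 library (0 and 1 without A129-2 replicates 1 and 2, 0 without A129-6 replicate 1 or 2, 32 and 31 without A129-17 replicates 1 and 2). Between A129-17 and A129-2 they numbered 0, but 13 with RLE, 5 with upper-quartile scaling, 60 with no filter, 72 with DESeq2, 70 with a replicate block, 19 with the correction, 65 with both, 100 without the 2 libraries and 0 to 70 leaving out 1 library (70 without A129-6 replicate 3, 26 and 1 without A129-17 replicates 1 and 2, 19 without A129-2 replicate 1, 17 without R1 replicate 1). Between A129-17 and A129-6 they numbered 0, but 18 with no filter, 29 with DESeq2, 34 with a replicate block, 29 with correction and block, 45 without the 2 libraries and 0 to 40 leaving out 1 library (40 without A129-6 replicate 3, 16 without A129-17 replicate 2, 3 without R1 replicate 1, 1 each without 4 others). Uncalled differences between lines changed sign. For A129-6 less A129-2, miR-182-3p turned to 0.089 (block), 0.034 (correction and block) and 0.12 (without the 2 libraries), and leaving out 1 library gave -0.59 to 0.095, with -0.17 to 1.28 for miR-182-5p. For A129-17 less A129-2, leaving out 1 library gave -0.055 to 1.23 for miR-96-5p and -0.94 to 0.55 for miR-182-5p. For A129-17 less A129-6, miR-183-5p turned to 0.035 (block), 0.36 (correction and block) and 0.25 (without the 2 libraries), with -0.44 to 0.098 leaving out 1 library. There miR-96-5p turned to 0.026 (stricter filter), 0.081 (block), 0.23 (correction), 0.46 (correction and block) and 0.053 (without the 2 libraries), with -0.17 to 0.13 leaving out 1 library. Between the haploid lines and RS, miR-182-5p turned to -0.35 (upper-quartile), -0.52 (total counts), -0.36 (correction) and -0.41 (correction and block). miR-96-5p, not called as reported, was called lower with 4 other scalings or tests (-2.17 to -0.85) and ranged from -1.02 to 0.15 leaving out 1 library. Calls numbered 351 with correction and block, against 527, but on the 651 miRNAs with a sequence this was 53.9% called, against 65.9%. With the correction alone 49% of calls were higher in the haploid lines than in RS, against 68.1%, and 51.9% were higher in R1 than in RS, against 63.5%. Calls of arm ratios numbered 137 between the haploid lines and R1, and 68 to 139 leaving out 1 library, with 68 and 76 without R1 replicates 1 and 2. Among lines they were 0 to 1, the 1 without A129-6 replicate 1. Between R1 and RS they were 109, 169 with a pseudocount of 5 and 66 to 112 leaving out 1 library, with 66 without R1 replicate 2. The correction, possible for fewer miRNAs (64.1% against R1 and 65.8% against RS, so that its counts speak for these only), gave 78 against 93 for the same miRNAs, 116 against 116 for the haploid lines and RS, and 69 against 68 for R1 and RS. With a pseudocount of 5 the arm ratios of miR-96 against R1 and of miR-183 and miR-182 against RS turned to -1.70, 1.17 and 1.86, and that of miR-183 between R1 and RS was -0.057 to 1.68 leaving out 1 library. Leaving out 1 library, the ratios to R1 of miR-182-5p over miR-183-5p, miR-96-5p over miR-183-5p and miR-96-5p over miR-182-5p were -2.23 to -1.98, -3.69 to -3.33 and -1.55 to -1.35. Without either R1 library the exact p was 0.125, the smallest then allowed. With the correction the last ratio was at 0.039 against R1 and 0.034 against RS. Equal replicate numbers did not pair the samples: of 21 pairs 1 had a correlation of deviations above 0.1 (range -0.156 to 0.135). The replicate block gave 534 calls between the haploid lines and R1, as without it, and 72 among the lines, or 75 with the correction. The cause of these changes was not tested. The depth of RS limits every statement on its 3p arms and on miR-96-5p.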
